A study of Mus musculus with 16 samples.

Results

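Ceramides, the sphingolipids at the branch point between membrane lipid synthesis and lipid signalling, are made and degraded by a small set of enzymes. Transcript levels of 10 of their genes (Sptlc1, Sptlc2, Kdsr, Cers2, Cers4, Cers5, Cers6, Degs1, Asah1 and Asah2) were followed in mouse interscapular brown fat. The 10 genes were picked by symbol from the 38924 rows of a table of raw read counts per Ensembl gene. They were chosen with earlier results of these data known, and all 10 passed the low-count filter. The series holds 16 bulk RNA-seq libraries in 4 groups of 4, all from C57BL/6J mice aged 13 weeks that had spent the last 4 weeks at 1 ambient temperature. The groups were mice with a brown-fat-specific Akt2 knockout (KO) at 22 °C, wild-type littermates (WT) at 22 °C, KO mice at 30 °C (a thermoneutral temperature for mice) and WT mice at 30 °C. The deletion was made with UCP1-CreER, a recombinase under the promoter of the brown adipocyte gene Ucp1, so that blood vessel, immune and stromal cells of the depot are expected to keep Akt2. Whether the WT littermates carried the recombinase or were given its activating drug is not given in the sources used here. The labels number the libraries within a group without saying in so many words that each is a separate animal, so p-values here refer to the spread among these libraries, which may be technical in part.

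De novo ceramide synthesis starts on the endoplasmic reticulum, where serine palmitoyltransferase joins serine to palmitoyl-CoA and the product is reduced to sphinganine. Ceramide synthases then attach a second fatty acid, whose length depends on the synthase, and a desaturase turns dihydroceramide into ceramide. Ceramidases split ceramide into sphingosine and a fatty acid, and ceramide can instead be built into sphingomyelin and glycosphingolipids. AKT2 is a kinase downstream of the insulin receptor, and ceramide is known to inhibit AKT activation in several cell types.

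Library totals were 15117483 to 16871456 counts in KO at 22 °C, 14563657 to 23866743 in WT at 22 °C, 12751528 to 17020621 in KO at 30 °C and 15303069 to 16022550 in WT at 30 °C. The targeted gene Akt2 averaged 82.2 ± 6.03 CPM (counts scaled to a common library size) in KO against 232 ± 19.8 CPM in WT at 22 °C, and 69.4 ± 10.7 CPM in KO against 204 ± 12.9 CPM in WT at 30 °C (SD, n = 4 each). CPM here are scaled to library sizes adjusted by trimmed means (TMM). Brown adipocyte markers were counted in every library, and their summed share was 1.79 to 2.36% of counts in KO and 1.66 to 2.73% in WT at 22 °C, and 1.24 to 1.46% in KO and 1.26 to 1.42% in WT at 30 °C. The 10 endothelial markers summed to 0.122 to 0.141% of counts in KO and 0.0877 to 0.108% in WT at 22 °C, and to 0.167 to 0.200% in KO and 0.174 to 0.178% in WT at 30 °C. The 12 macrophage markers summed to 0.0134 to 0.0167% in KO and 0.0108 to 0.0234% in WT at 22 °C, and to 0.0260 to 0.0321% in KO and 0.0242 to 0.0375% in WT at 30 °C. Neither list had a member at 0 in any library. Skeletal muscle markers took over 0.1% of counts in 4 libraries (KO replicate 1 at 22 °C with 0.670%, KO replicates 1 and 2 at 30 °C with 0.124 and 0.421%, and WT replicate 2 at 30 °C with 0.274%), called muscle-bearing below. A clock index (the difference between the log2 CPM of the clock output gene Dbp and the log2 CPM of the clock gene Arntl, centred on its mean) lay between -2.72 and -1.49 in KO and between -0.09 and 2.48 in WT at 22 °C, and between -0.65 and 0.97 in KO and between 0.15 and 1.11 in WT at 30 °C. KO at 22 °C thus overlapped neither WT at 22 °C nor KO at 30 °C. In whole tissue, fewer cells of a type and less RNA per cell cannot be told apart.

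Per kilobase of exon, Cers2 was the most abundant of the 10 genes in every group and Cers6 the least. Levels for this ranking are RPKM, the CPM divided by the kilobases of annotated exon, which are too low for a gene with long exons that are little used. Cers2 stood at 46.2 ± 2.30 RPKM in KO and 58.9 ± 7.37 RPKM in WT at 22 °C, and at 56.6 ± 1.04 RPKM in KO and 61.3 ± 3.97 RPKM in WT at 30 °C. Degs1 was second everywhere, with group means from 20.7 to 25.2 RPKM, and its libraries overlapped neither those of Cers2 nor those of the gene next below in any group. Sptlc1, Asah1 and Cers5 filled ranks 3 to 5 between 9.63 and 14.6 RPKM. Sptlc1 led these 3 at 22 °C in both genotypes and came last of them at 30 °C in both genotypes. Its libraries overlapped those of the neighbour among these 3 in every group but WT at 22 °C. Kdsr (4.45 to 5.95 RPKM) overlapped Sptlc2 (3.13 to 3.53 RPKM) only in KO at 22 °C. Asah2 lay between 1.75 and 2.17 RPKM, Cers4 near 1, between 0.91 and 1.10 RPKM, and Cers6 between 0.14 and 0.26 RPKM, each without overlap with its neighbours. Cers6 rested on 12 to 59 reads per library, so its differences were measured poorly.

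**Figure D1:**
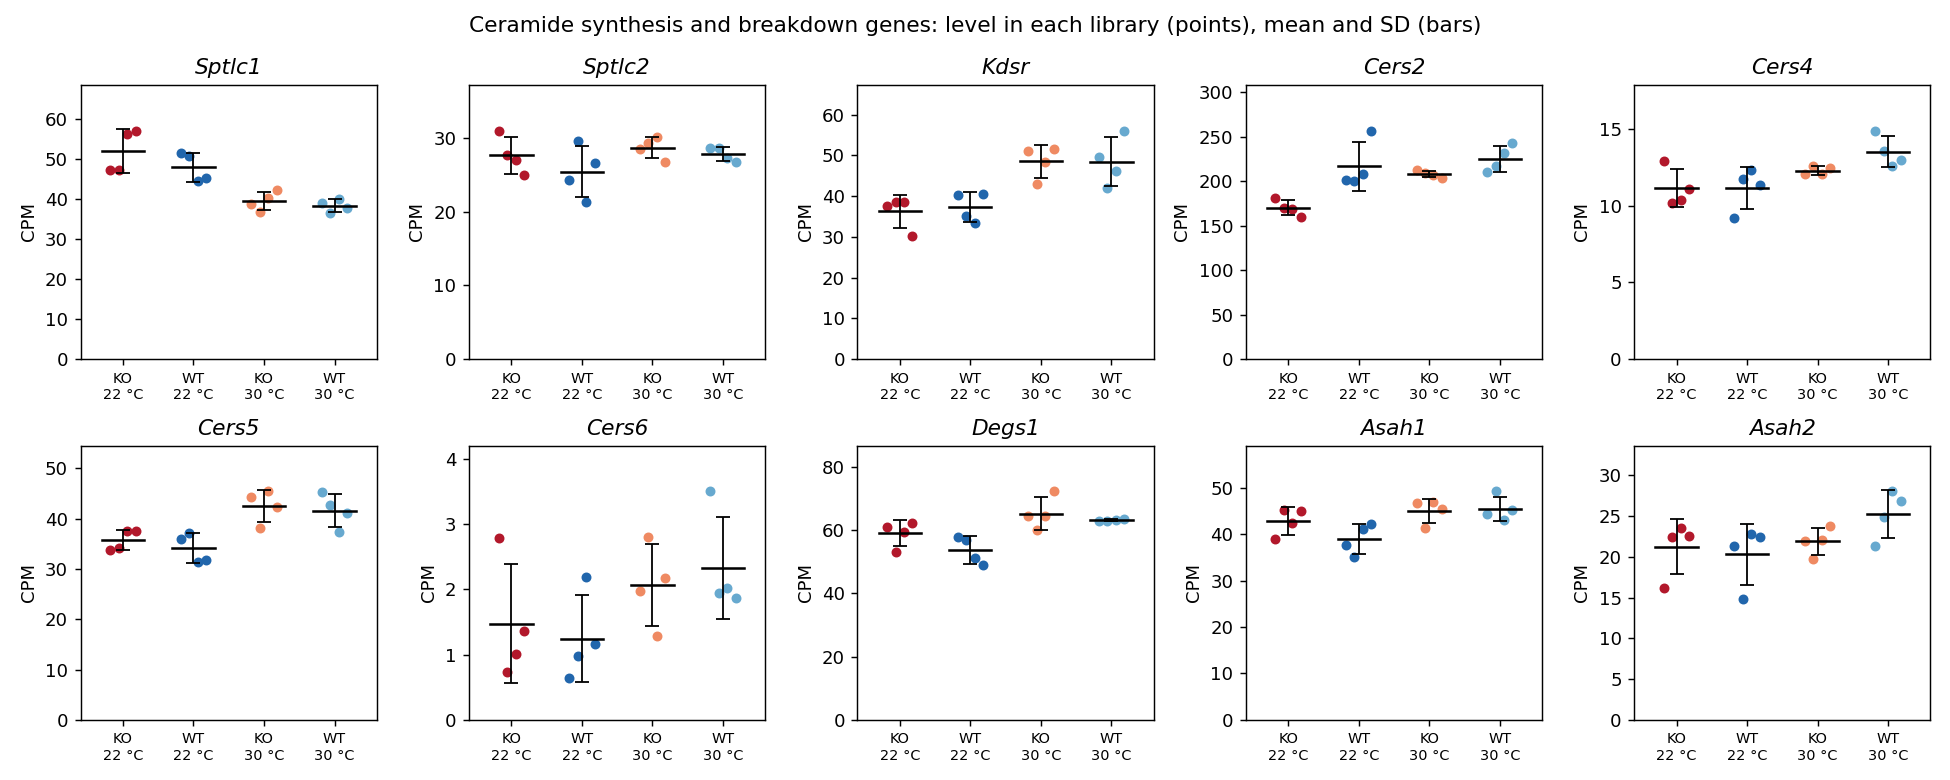
Level of each of the 10 genes in every library (points), in CPM on an axis from 0, with the mean and SD of the 4 libraries of each group. Sptlc1 sits higher and Kdsr and Cers5 lower at 22 °C than at 30 °C in both genotypes, while the KO libraries at 22 °C lie below all others for Cers2.

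More of these genes passed the test between temperatures than between genotypes, as was also the case over all genes tested. In edgeR's quasi-likelihood test with Benjamini-Hochberg adjustment over 14103 genes, at a threshold of 0.05 that holds for every call below, 4 of 10 genes changed at 22 °C against 30 °C in KO, 1 higher and 3 lower. Over all genes tested 26.7% changed in that comparison, 13.8% higher and 13.0% lower. In WT 6 of 10 changed, 1 higher and 5 lower, beside 38.3% of all genes, 20.5% higher and 17.8% lower. The 6 calls in WT became 2 when WT replicate 1 or 2 of 30 °C was left out, 3 when WT replicate 4 of 30 °C was, and 2 without the muscle-bearing libraries, where 1 call was left in KO. KO against WT at 22 °C gave 1 lower call and 9 genes not called, beside 17.6% of all genes (7.52% higher and 10.1% lower). KO against WT at 30 °C gave none by edgeR, DESeq2 or limma-voom, with 0, 0 and 2 of 10 at an unadjusted p under 0.05, beside 0.0425% of all genes called there (0.0284% higher and 0.0142% lower). The interaction, which is the KO effect at 22 °C minus that at 30 °C, also gave none by these tools, with 0, 1 and 1 of 10 at an unadjusted p under 0.05, beside 3.14% of all genes (0.752% higher and 2.39% lower). The median log2 fold change of the 10 genes was -0.14 at 22 °C against 30 °C in KO, where all genes had a median of 0.02. It was -0.25 in WT, against -0.03 for all genes, and 0.09 for KO against WT at 22 °C, against 0.02 for all genes. The lower calls at 22 °C stood beside lower macrophage and endothelial transcripts: 9 of 12 macrophage markers were lower in each genotype, and 4 of 10 endothelial markers in KO and 7 of 10 in WT. Of 8 fibroblast and preadipocyte markers 2 were lower in KO, while 5 were lower and 1 higher in WT, and of 9 lymphocyte markers tested 0 were called in KO by edgeR and 3 were lower in WT. Of 10 brown adipocyte markers 5 were higher in KO and 7 in WT. The clock index moved with the temperature in KO. With it as a covariate, the KO calls of Sptlc1 (0.42, adjusted p = 0.0360), Kdsr (-0.54, adjusted p = 0.0317) and Cers2 (-0.46, adjusted p = 0.012) held and that of Cers5 did not. The part of these cell types in the calls was not tested.

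**Figure D2:**
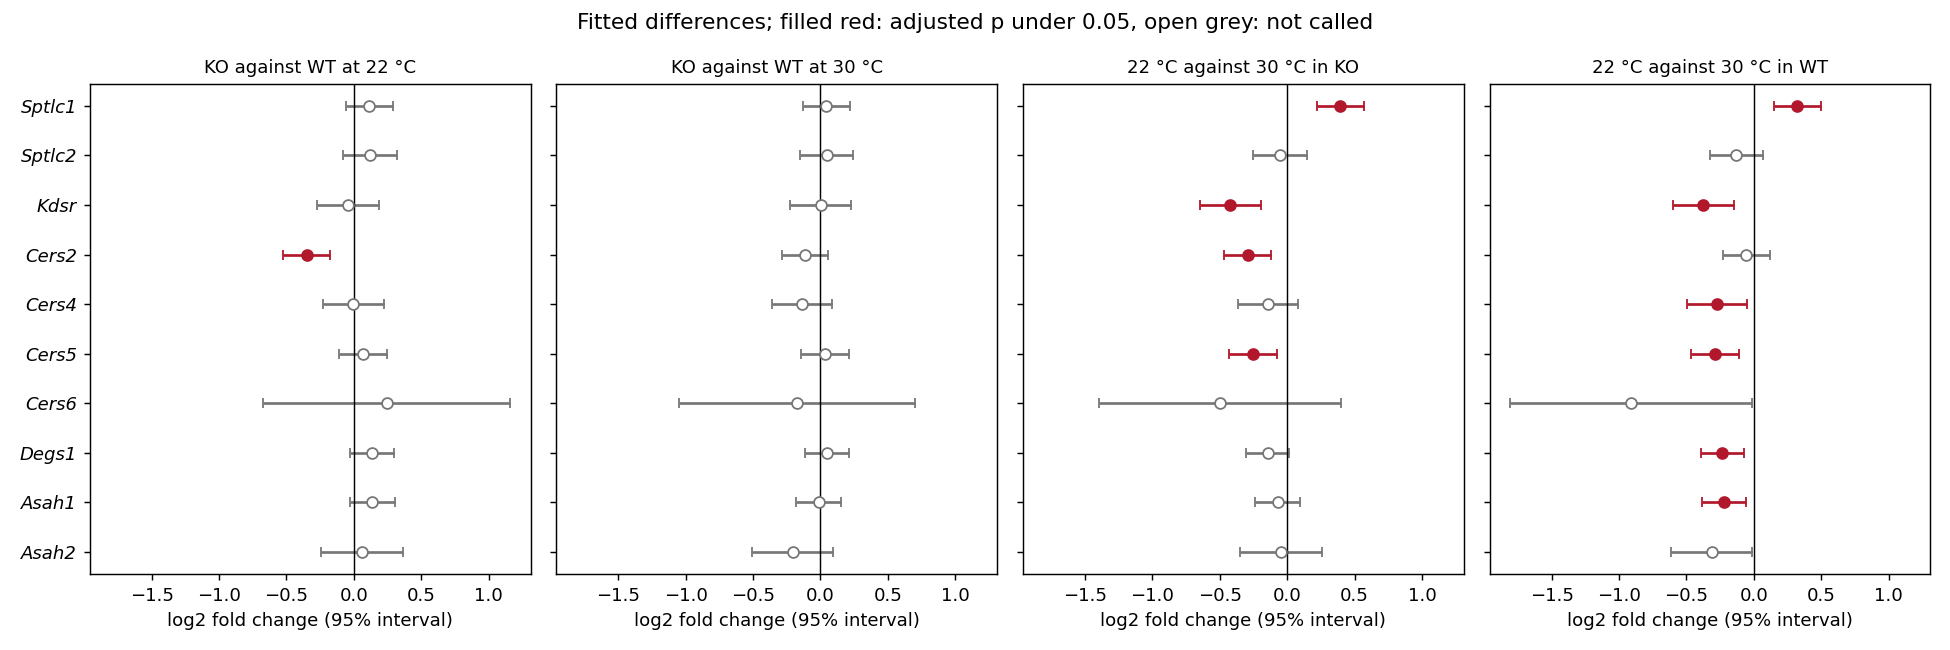
Log2 fold change of each gene (points) with its 95% confidence interval (bars) in the comparisons of the text; filled points passed an adjusted p of 0.05. Sptlc1 lies right of 0 and Kdsr and Cers5 left of 0 in both temperature comparisons, and Cers2 is the only filled point in a genotype comparison.

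The promoters of Sptlc1, Kdsr, Cers5 and Cers2, the genes whose differences with temperature or genotype are described first below, are shown because Sptlc1 was called higher at 22 °C in both genotypes while every temperature call of the other 3 was lower. Each runs from 250 bases before to 50 bases after the transcript start, 5′ to 3′ on the strand of the gene, from RefSeq on GRCm38.p6. Capitals mark the letters CACGTG (an E-box), CCAAT (or ATTGG on the other strand) and GGGCGG (a GC box, or CCGCCC), motifs picked after the values were known. Coordinates are chr13:53377312-53377611 on the minus strand for Sptlc1, chr1:106759693-106759992 on the minus strand for Kdsr, chr15:99772466-99772765 on the minus strand for Cers5 and chr3:95314940-95315239 on the plus strand for the first of 2 Cers2 promoters.
Sptlc1: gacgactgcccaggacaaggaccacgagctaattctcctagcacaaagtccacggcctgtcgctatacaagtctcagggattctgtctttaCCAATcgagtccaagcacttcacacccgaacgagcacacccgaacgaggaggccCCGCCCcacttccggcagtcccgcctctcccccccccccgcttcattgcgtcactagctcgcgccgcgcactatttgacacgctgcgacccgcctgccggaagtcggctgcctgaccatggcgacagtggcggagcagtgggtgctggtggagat
Kdsr: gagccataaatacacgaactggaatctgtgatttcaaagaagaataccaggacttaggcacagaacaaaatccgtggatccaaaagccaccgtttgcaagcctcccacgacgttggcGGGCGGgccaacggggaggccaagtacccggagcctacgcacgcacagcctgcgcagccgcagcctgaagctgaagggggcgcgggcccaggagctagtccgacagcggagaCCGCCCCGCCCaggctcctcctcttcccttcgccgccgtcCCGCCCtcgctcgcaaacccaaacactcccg
Cers5: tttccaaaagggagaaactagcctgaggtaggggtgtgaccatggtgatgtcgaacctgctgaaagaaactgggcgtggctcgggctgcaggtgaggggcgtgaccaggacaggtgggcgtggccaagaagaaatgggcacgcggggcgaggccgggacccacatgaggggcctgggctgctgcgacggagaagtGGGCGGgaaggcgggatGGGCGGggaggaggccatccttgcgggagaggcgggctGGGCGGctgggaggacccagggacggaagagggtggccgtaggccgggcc
Cers2: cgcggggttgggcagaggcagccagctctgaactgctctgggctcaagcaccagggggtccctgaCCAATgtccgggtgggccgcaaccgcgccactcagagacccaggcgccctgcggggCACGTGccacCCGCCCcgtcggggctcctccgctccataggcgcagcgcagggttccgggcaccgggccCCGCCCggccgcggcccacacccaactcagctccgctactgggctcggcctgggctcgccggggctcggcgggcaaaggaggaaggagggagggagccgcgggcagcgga
Of these 4 windows, that of Cers2 has 1 E-box, starting at position -129 from the transcript start. Sptlc1 and Cers2 each have 1 CCAAT, and all 4 have GC boxes, 1 in Sptlc1, 4 in Kdsr with a pair that shares a base, 3 in Cers5 and 2 in Cers2. Promoters were found for 9 of the 10 genes, 10 windows in all, and Asah1 was not matched. The E-box occurred in 3 of the 10 windows (Cers2, Cers6 and Degs1) and in 7.15% of 32851 RefSeq promoters. CCAAT occurred in 4 of the 10 windows and in 37.4% of all promoters, and the GC box in 6 of the 10 windows and in 35.7% of all. A match is a run of letters and not a measured binding site.

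Serine palmitoyltransferase catalyses the first and rate-limiting step, with SPTLC1 and SPTLC2 as its core subunits. Sptlc1 (ENSMUSG00000021468, chromosome 13, 53332748 to 53377397, minus strand, GRCm38, as for all coordinates below) was counted at 47.1, 47.3, 56.2 and 57.1 CPM in the KO libraries at 22 °C and at 51.4, 50.7, 44.5 and 45.1 CPM in WT at 22 °C. At 30 °C it stood at 38.7, 36.8, 40.3 and 42.2 CPM in KO and at 39.1, 36.4, 40.1 and 37.7 CPM in WT. Every library at 22 °C was above every library at 30 °C of the same genotype, while the genotypes overlapped at both temperatures. Sptlc1 rose at 22 °C by a log2 fold change of 0.39 in KO (SE 0.0824, adjusted p = 0.00286) and 0.32 in WT (SE 0.0823, adjusted p = 0.00610). The call in KO was lost without the muscle-bearing libraries (0.37, adjusted p = 0.0519), and the call in WT with upper-quartile scaling (0.22, adjusted p = 0.0517). With library totals alone the call in WT was also lost (0.04, adjusted p = 0.715), beside a median of all genes of -0.31 under that scaling. The distance of Sptlc1 from that median was not tested.

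The gene of its partner subunit was not called in any comparison by edgeR. Sptlc2 (ENSMUSG00000021036, chromosome 12, 87305058 to 87388355, minus strand) averaged 27.6 ± 2.51 CPM in KO and 25.4 ± 3.51 CPM in WT at 22 °C, and 28.7 ± 1.44 CPM in KO and 27.8 ± 0.975 CPM in WT at 30 °C, with overlapping libraries in all 4 comparisons of groups. Its log2 fold change at 22 °C against 30 °C was -0.05 in KO (95% interval -0.25 to 0.15, adjusted p = 0.714) and -0.13 in WT (95% interval -0.33 to 0.07, adjusted p = 0.295). The ratio of Sptlc1 to Sptlc2 RPKM was 4.34 ± 0.797 in KO and 4.35 ± 0.525 in WT at 22 °C, and 3.16 ± 0.315 in KO and 3.15 ± 0.192 in WT at 30 °C. The temperatures overlapped in KO, with 3.47 as the lowest at 22 °C and 3.60 as the highest at 30 °C. In WT they did not, with 3.88 as the lowest at 22 °C and 3.36 as the highest at 30 °C. These ratios carry no test.

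Kdsr encodes 3-ketodihydrosphingosine reductase, the enzyme of the second step, and went the opposite way. Kdsr (ENSMUSG00000009905, chromosome 1, 106720459 to 106759727, minus strand) was counted at 37.6, 38.5, 38.6 and 30.1 CPM in KO and 40.1, 35.1, 33.4 and 40.6 CPM in WT at 22 °C. At 30 °C it had 51.1, 42.9, 48.2 and 51.6 CPM in KO and 49.6, 41.9, 46.1 and 56.1 CPM in WT. All libraries at 22 °C lay below all those at 30 °C of the same genotype. Kdsr fell at 22 °C by 0.42 on the log2 scale in KO (SE 0.108, adjusted p = 0.00995) and by 0.37 in WT (SE 0.107, adjusted p = 0.0122). These calls held under each of the 20 alternative settings run, at values of -0.54 to -0.36 in KO and -0.66 to -0.29 in WT. KO against WT was not called at 22 °C (-0.04, 95% interval -0.27 to 0.18) or at 30 °C (0.00, 95% interval -0.23 to 0.23). The ratio of Sptlc1 to Kdsr RPKM was 3.34 ± 0.709 in KO and 2.96 ± 0.316 in WT at 22 °C, and 1.87 ± 0.0983 in KO and 1.83 ± 0.212 in WT at 30 °C. Its temperatures could not overlap, since neither gene overlapped and the genes differed in opposite directions, so it adds no separate observation.

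**Figure D3:**
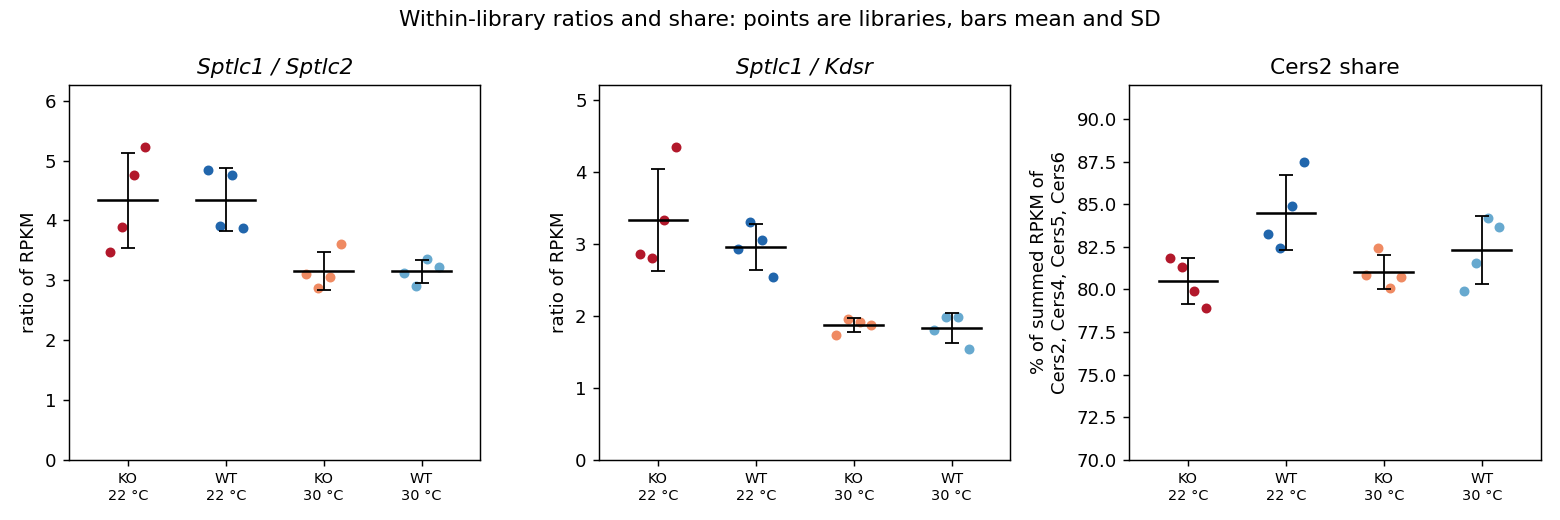
Ratios of RPKM within each library (points) with the mean and SD of each group: Sptlc1 over Sptlc2, Sptlc1 over Kdsr, and the percent of the summed RPKM of the 4 ceramide synthases that was Cers2 (axis not from 0). Sptlc1 over Kdsr is higher at 22 °C in both genotypes, as the levels of the 2 genes require, and the Cers2 share is at most 81.9% in KO and at least 82.4% in WT at 22 °C.

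Among the ceramide synthases, Cers2 was lower in KO than in WT at 22 °C and was the only one of the 10 genes called between genotypes. Ceramide synthase 2 attaches very long acyl chains. Cers2 (ENSMUSG00000015714, chromosome 3, 95314791 to 95323599, plus strand) was counted at 181, 169.6, 169 and 160.1 CPM in KO and at 201, 199.6, 209 and 257 CPM in WT at 22 °C. At 30 °C it had 213, 209, 207 and 204 CPM in KO and 209.9, 217, 231 and 243 CPM in WT. All 4 KO libraries at 22 °C lay below all 12 others, and WT replicate 4 at 22 °C stood above the rest of its group. The log2 fold change of KO against WT at 22 °C was -0.35 (SE 0.0819, 95% interval -0.52 to -0.18, adjusted p = 0.00971). It was called without each of the 8 libraries in turn, at -0.39 to -0.26. The call was lost in a fit of only these 2 groups (-0.35, adjusted p = 0.0951), with the clock index as a covariate (-0.61, adjusted p = 0.0849) and with library totals alone (-0.22, adjusted p = 0.0645), where the median of all genes was 0.15. The clock index did not overlap between these groups. Higher in KO were 5 of 10 endothelial, 2 of 8 fibroblast and preadipocyte and 1 of 9 tested lymphocyte markers, beside 7.52% of all genes. Of 10 brown adipocyte markers 1 was higher and 1 lower. Of 5 tested white adipocyte markers 1 was lower, beside 10.1% of all genes, and 0 of 12 macrophage markers were called. The part of the clock or of any cell type in the Cers2 difference was not tested.

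At 30 °C the Cers2 difference was -0.12 (95% interval -0.29 to 0.06, adjusted p = 0.998), and the KO effects at the 2 temperatures differed by -0.24, which did not pass the test (95% interval -0.48 to 0.01, adjusted p = 0.258). Cers2 thus is not shown to respond differently to the knockout at the 2 temperatures. In KO it fell by 0.29 on the log2 scale at 22 °C against 30 °C (SE 0.0819, adjusted p = 0.0160), a call lost without the muscle-bearing libraries (-0.30, adjusted p = 0.0931). In WT the difference was -0.06 (95% interval -0.23 to 0.12, adjusted p = 0.609). Cers2 shares 75 exon bases, 2.04% of its own, with Setdb1 on the other strand, and without a stated strand setting reads of the overlap cannot be told apart. Setdb1, a histone methyltransferase gene, had 36.9 ± 3.04 CPM in KO and 30.3 ± 4.64 CPM in WT at 22 °C, a difference in the other direction from that of Cers2 that did not pass the test (0.28, adjusted p = 0.0632).

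Cers5 and Cers6 make ceramides with the palmitoyl chain, and Cers4 those with longer saturated chains. Cers5 (ENSMUSG00000023021, chromosome 15, 99734881 to 99772885, minus strand) had 33.8, 34.3, 37.6 and 37.5 CPM in KO and 36.0, 37.3, 31.4 and 31.7 CPM in WT at 22 °C. At 30 °C it had 44.3, 38.2, 45.4 and 42.4 CPM in KO and 45.2, 42.6, 37.4 and 41.1 CPM in WT. The temperatures did not overlap in either genotype, by a margin of under 1 CPM in each. Cers5 fell at 22 °C by 0.25 on the log2 scale in KO (SE 0.0839, adjusted p = 0.0374) and by 0.29 in WT (SE 0.0838, adjusted p = 0.0137). The KO call was lost in 7 of 8 fits that left out 1 library, all but KO replicate 2 at 30 °C, with adjusted p of 0.0509 to 0.107. It was also lost in 4 of the 12 settings that did not leave out a single library (no filter, the replicate block, no muscle-bearing libraries and the clock covariate, where it was -0.17), with adjusted p of 0.0657 to 0.401. The WT call was lost without WT replicate 1 (adjusted p = 0.0605) or 2 (adjusted p = 0.0523) at 30 °C and without the muscle-bearing libraries (adjusted p = 0.0573).

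Cers4 (ENSMUSG00000008206, chromosome 8, 4493026 to 4531680, plus strand) averaged 11.2 ± 1.25 CPM in KO and 11.2 ± 1.38 CPM in WT at 22 °C, and 12.3 ± 0.273 CPM in KO and 13.5 ± 1.01 CPM in WT at 30 °C. It fell at 22 °C in WT by 0.28 on the log2 scale (SE 0.105, adjusted p = 0.0478), close to the threshold. That call was lost without WT replicate 1 or 4 at 22 °C or any WT replicate at 30 °C, with adjusted p of 0.0512 to 0.142, and in 8 of the 12 other settings, DESeq2 and limma-voom among them (adjusted p of 0.0662 to 0.123). In KO the value was -0.14 (adjusted p = 0.332). Cers6 (ENSMUSG00000027035, chromosome 2, 68861441 to 69114282, plus strand) ranged from 0.735 to 2.79 CPM in KO and from 0.640 to 2.19 CPM in WT at 22 °C, and from 1.28 to 2.81 CPM in KO and from 1.87 to 3.51 CPM in WT at 30 °C. Its largest difference, -0.91 at 22 °C against 30 °C in WT, had a 95% interval of -1.81 to -0.01 and did not pass the test (adjusted p = 0.102).

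Summed over the 4 synthases, Cers2 made up 80.5% ± 1.35 of RPKM in KO and 84.5% ± 2.22 in WT at 22 °C, and 81.0% ± 0.983 in KO and 82.3% ± 1.98 in WT at 30 °C. The highest KO library at 22 °C had 81.9% and the lowest WT library had 82.4%. The Cers5 share was 17.6% ± 1.47 in KO and 13.98% ± 2.19 in WT at 22 °C, while the Cers4 share stayed under 1.76% and the Cers6 share under 0.56% in every library. The synthase sum itself was 57.4 ± 2.03 RPKM in KO and 69.6 ± 6.87 RPKM in WT at 22 °C, and 69.9 ± 1.34 RPKM in KO and 74.4 ± 3.30 RPKM in WT at 30 °C. Shares and sums carry no test, and Cers2 dominates both.

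Degs1, the dihydroceramide desaturase that completes ceramide, was lower at 22 °C in WT. Degs1 (ENSMUSG00000038633, chromosome 1, 182275772 to 182282804, minus strand) had 61.1, 53.1, 59.5 and 62.4 CPM in KO and 57.9, 56.8, 51.3 and 48.9 CPM in WT at 22 °C. At 30 °C it had 64.4, 60.0, 64.4 and 72.3 CPM in KO and 62.8, 63.0, 63.2 and 63.7 CPM in WT. The KO libraries overlapped between temperatures, while the WT libraries did not. Degs1 had a log2 fold change of -0.15 in KO (adjusted p = 0.171) and fell by 0.23 in WT (SE 0.0759, adjusted p = 0.0239). The WT call was lost without WT replicate 3 or 4 at 22 °C or any WT replicate at 30 °C (adjusted p of 0.0510 to 0.0704), with no filter (adjusted p = 0.0609) and without the muscle-bearing libraries (adjusted p = 0.0775). The interaction was 0.09 (95% interval -0.14 to 0.32, adjusted p = 0.661), so the 2 genotypes are not shown to differ in this.

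Of the ceramidases, Asah1 encodes the lysosomal acid enzyme and Asah2 the neutral enzyme. Asah1 (ENSMUSG00000031591, chromosome 8, 41340197 to 41374773, minus strand) had 38.9, 45.2, 42.4 and 45.1 CPM in KO and 37.7, 35.1, 41.1 and 42.2 CPM in WT at 22 °C. At 30 °C it had 46.8, 41.3, 46.9 and 45.4 CPM in KO and 44.5, 49.3, 43.1 and 45.2 CPM in WT. All WT libraries at 22 °C were below those at 30 °C, while the KO libraries overlapped. The log2 fold change was -0.07 in KO (adjusted p = 0.531), and Asah1 fell by 0.22 in WT (SE 0.0779, adjusted p = 0.0340). The WT call was lost in 5 of 8 fits that left out 1 library (WT replicates 1 and 2 at 22 °C and 1, 2 and 4 at 30 °C, adjusted p of 0.0510 to 0.115) and in 6 of the 12 other settings, limma-voom among them (adjusted p of 0.0534 to 0.113). Asah2 (ENSMUSG00000024887, chromosome 19, 31982597 to 32108211, minus strand) averaged 21.2 ± 3.38 CPM in KO and 20.3 ± 3.75 CPM in WT at 22 °C, and 21.9 ± 1.65 CPM in KO and 25.3 ± 2.97 CPM in WT at 30 °C. It passed the test in none of the 5 comparisons by edgeR, and its largest value was -0.31 at 22 °C against 30 °C in WT (unadjusted p = 0.0437, adjusted p = 0.0957).

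Between genotypes the genes other than Cers2 had log2 fold changes of -0.04 to 0.24 at 22 °C, with adjusted p of 0.221 or more. Degs1 had 0.13 (95% interval -0.03 to 0.30) and Asah1 0.14 (95% interval -0.03 to 0.30), and both were called higher with library totals alone, at 0.27 each, beside a median of all genes of 0.15. At 30 °C all 10 lay between -0.21 and 0.05, with an adjusted p of 0.998 each. Of genes whose libraries did not overlap between groups, the 10 held 1 for KO against WT at 22 °C (17.5% of all genes) and 0 at 30 °C (5.93% of all genes). At 22 °C against 30 °C they held 4 in KO (32.6% of all genes) and 6 in WT (35.3% of all genes). The temperature comparisons share libraries with the genotype comparisons, so their values stand side by side here without a test of their likeness.

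Sptlc1 had the smallest p of the 10 in an F test over the 4 groups (adjusted p = 0.000931). The 5 genes with the pattern most like it over 16 libraries, by the root-mean-square difference of centred log2 CPM, were Szrd1 (0.0854), Dhx16 (0.0856), Asns (0.0927), Gsk3a (0.0941) and Cd99l2 (0.0942), of 10005 genes compared with a median of 0.293. Asns encodes asparagine synthetase and Gsk3a a kinase that AKT phosphorylates.

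Outside the 10 genes, the list of other de novo ceramide genes included Tlcd3b, a member of the same TLC domain family as the ceramide synthases, whose human counterpart was described as a ceramide synthase. Tlcd3b (ENSMUSG00000058966, chromosome 7, 126797668 to 126830219, plus strand) had 16.4, 21.1, 18.6 and 19.1 CPM in KO and 97.9, 82.2, 72.8 and 61.0 CPM in WT at 22 °C. At 30 °C it had 13.5, 10.5, 12.1 and 8.99 CPM in KO and 10.3, 13.9, 13.6 and 11.4 CPM in WT. WT at 22 °C stood far above the other 3 groups, and KO at 22 °C above both groups at 30 °C. The log2 fold change of KO against WT was -2.06 at 22 °C (SE 0.154, adjusted p = 1.12e-06) and differed from that at 30 °C by -1.93 (SE 0.217, adjusted p = 0.000276). At 22 °C against 30 °C it was 0.74 in KO (SE 0.155, adjusted p = 0.00277) and 2.67 in WT (SE 0.158, adjusted p = 2.96e-08). All 4 calls held under every alternative run, at -2.16 to -1.37 for KO against WT at 22 °C and -2.04 to -1.34 for the interaction.

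Tlcd3b shares 25 exon bases with Aldoa, the glycolytic aldolase gene on the other strand. They are 0.635% of the exon bases of Tlcd3b and 0.859% of those of Aldoa. Without a stated strand setting, reads of the overlap cannot be told apart. Aldoa averaged 1914 ± 306 CPM in KO and 4234 ± 904 CPM in WT at 22 °C, and 1368 ± 126 CPM in KO and 1266 ± 100.2 CPM in WT at 30 °C. It moved in the same directions, with log2 fold changes of -1.15 for KO against WT at 22 °C (adjusted p = 8.75e-05), and of 0.48 in KO (adjusted p = 0.0182) and 1.74 in WT (adjusted p = 5.26e-07) at 22 °C against 30 °C. As a percent of Aldoa CPM, Tlcd3b was 0.694 to 1.15% in KO and 1.71 to 2.10% in WT at 22 °C, and 0.698 to 0.949% in KO and 0.860 to 1.03% in WT at 30 °C. WT at 22 °C was thus apart in this percent as well. The share of Aldoa exon bases in the overlap is not the share of Aldoa reads that touch it, which was not measured. How many Tlcd3b counts came from Aldoa reads was not tested.

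**Figure D4:**
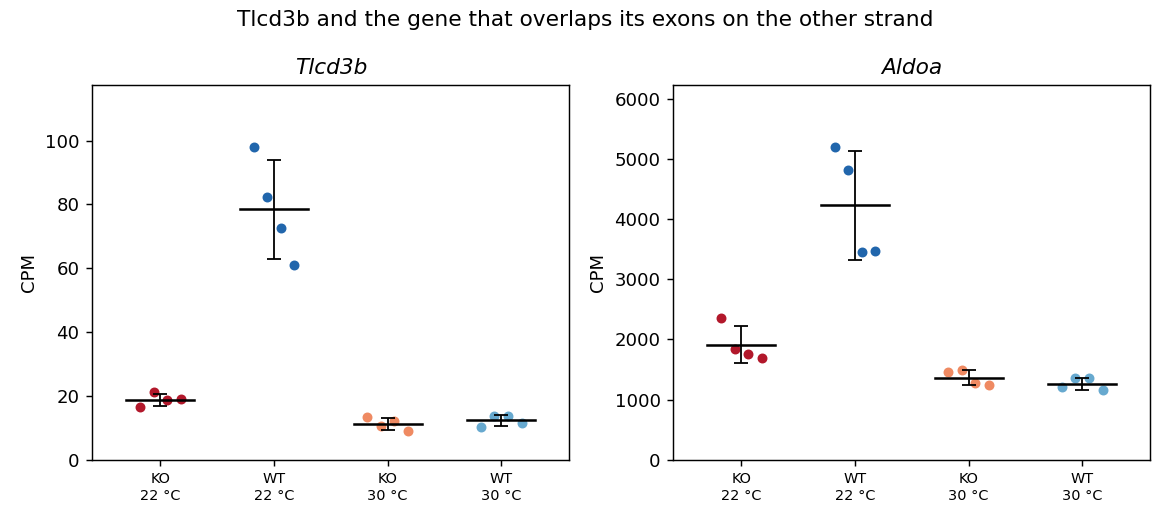
CPM of Tlcd3b and of Aldoa, which overlaps its exons on the other strand, in every library (points) with the mean and SD of each group, on axes from 0. WT at 22 °C is highest for both genes, at 78.5 ± 15.6 CPM for Tlcd3b and 4234 ± 904 CPM for Aldoa.

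Of the 10 other de novo genes listed (further subunits, regulators and paralogs), 6 could be tested, and 0 rose and 2 fell in KO against WT at 22 °C. Cers1 had no read in any library, and Cers3, Sptlc3 and Sptssb had at most 4, 3 and 1. Besides Tlcd3b, Ormdl3, an inhibitor of serine palmitoyltransferase, averaged 475 ± 17.3 CPM in KO and 577 ± 91.3 CPM in WT at 22 °C, and 476 ± 26.8 CPM in KO and 470.0 ± 7.76 CPM in WT at 30 °C. It fell in KO against WT at 22 °C by 0.28 on the log2 scale (SE 0.0908, adjusted p = 0.0447) and rose at 22 °C against 30 °C in WT by 0.30 (SE 0.0908, adjusted p = 0.0180). The first call was lost without any of the KO replicates or WT replicate 1 or 2 at 22 °C (adjusted p of 0.0591 to 0.102) and the second when WT replicate 1 of either temperature or WT replicate 2 of 30 °C was left out (adjusted p of 0.0511 to 0.0543). With the clock covariate the KO against WT difference turned to 0.039 (adjusted p = 0.968), and it was also not called in 6 more of the 12 other settings. The WT temperature call was lost in 5 of them (adjusted p of 0.0775 to 0.904). At 22 °C against 30 °C 1 of the 6 rose and 0 fell in KO, and 2 rose and 2 fell in WT. The lower genes in WT included Degs2, the desaturase and hydroxylase paralog of Degs1, at 1.72 ± 0.589 CPM at 22 °C and 3.12 ± 0.515 CPM at 30 °C (-0.86, SE 0.278, adjusted p = 0.0227). That call was lost without WT replicate 1 or 3 at either temperature (adjusted p of 0.0561 to 0.0721) and with the clock covariate (adjusted p = 0.0884).

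Of the 3 other ceramidases, Acer1 had no read and Acer2 and Acer3 were not called in any comparison by edgeR, DESeq2 or limma-voom, nor at an unadjusted p under 0.05. Of the 3 genes of ceramide transfer and phosphorylation, 1 fell in each temperature comparison. That was Cerk, the ceramide kinase gene, with 16.8 ± 1.95 CPM in KO and 14.2 ± 2.24 CPM in WT at 22 °C, and 21.9 ± 2.40 CPM in KO and 21.1 ± 1.10 CPM in WT at 30 °C. It fell by 0.38 in KO (SE 0.115, adjusted p = 0.0253) and by 0.57 in WT (SE 0.115, adjusted p = 0.00130) on the log2 scale. The KO call was lost without KO replicate 2 or 3 at either temperature (adjusted p of 0.0525 to 0.0875), without the muscle-bearing libraries (adjusted p = 0.107) and with the clock covariate (adjusted p = 0.198). Among 7 tested sphingomyelin genes, Smpd1, the acid sphingomyelinase gene, rose in WT by 0.31 (SE 0.113, adjusted p = 0.0442), a call lost in 6 of 8 fits that left out 1 library, all but WT replicates 3 and 4 at 22 °C (adjusted p of 0.0634 to 0.175), and in 8 of the 12 other settings (adjusted p of 0.0515 to 0.878). No gene of that list passed in KO by edgeR, DESeq2 or limma-voom, with 0, 1 and 1 at an unadjusted p under 0.05.

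Of 15 glycosphingolipid genes, 2 rose and 2 fell at 22 °C against 30 °C in KO, and 2 rose and 4 fell in WT. St3gal5, which makes the ganglioside GM3 from lactosylceramide, had 44.6 ± 5.21 CPM in KO and 35.7 ± 25.1 CPM in WT at 22 °C, and 10.01 ± 1.63 CPM in KO and 9.31 ± 4.85 CPM in WT at 30 °C. It rose by 2.15 in KO (SE 0.405, adjusted p = 0.00138) and 1.94 in WT (SE 0.403, adjusted p = 0.00146) on the log2 scale. The WT libraries at 22 °C were spread, at 70.8, 36.9, 19.1 and 16.2 CPM, and the WT value was 1.36 without replicate 1 at 22 °C and 1.36 to 2.37 over all 8 fits that left out 1 library, called in each. Gba2, a glucosylceramidase, fell by 0.46 in KO (SE 0.131, adjusted p = 0.0169). The KO call was lost without the muscle-bearing libraries (adjusted p = 0.0600) and with the clock covariate (adjusted p = 0.103). Gba2 was called lower in WT too, at -0.43 (adjusted p = 0.0178), under all but 2 of the 20 alternatives. Those 2 fits lacked WT replicate 1 or WT replicate 2 of 30 °C, and gave adjusted p of 0.0519 to 0.0645. Gm2a, the activator protein of ganglioside GM2 breakdown, averaged 80.0 ± 5.43 CPM in KO and 102 ± 13.4 CPM in WT at 22 °C, and 67.1 ± 3.61 CPM in KO and 70.6 ± 3.87 CPM in WT at 30 °C. It rose in WT by 0.53 at 22 °C (SE 0.0885, adjusted p = 0.000257) and was the 1 gene of this list called in KO against WT at 22 °C (-0.35, SE 0.0884, adjusted p = 0.0136). That genotype call was lost in 3 of the 12 other settings (library totals alone, only these 2 groups and the clock covariate, adjusted p of 0.103 to 0.428). In KO its rise of 0.25 (SE 0.0886, adjusted p = 0.0454) was lost without any 1 of the 8 libraries (adjusted p of 0.0609 to 0.126) and in 8 of the 12 other settings (adjusted p of 0.0519 to 0.481).

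Sphingosine, the product of ceramidases, is phosphorylated to sphingosine 1-phosphate, and of 12 tested genes of that branch 2 rose and 0 fell at 22 °C in KO and 2 rose and 3 fell in WT. Sgpl1, the lyase that removes sphingosine 1-phosphate irreversibly, averaged 268 ± 25.5 CPM in KO and 191 ± 64.6 CPM in WT at 22 °C, and 142 ± 15.97 CPM in KO and 129.9 ± 2.66 CPM in WT at 30 °C. It rose by 0.92 in KO (SE 0.165, adjusted p = 0.00102) and 0.56 in WT (SE 0.164, adjusted p = 0.0141), and was still called in WT, at 0.29, without WT replicate 1 at 22 °C, but not with library totals alone (0.27, adjusted p = 0.147). Sgpp1, a sphingosine 1-phosphate phosphatase, fell in WT by 0.80 (SE 0.126, adjusted p = 0.000167), and S1pr2, a receptor, by 0.80 (SE 0.252, adjusted p = 0.0206). The S1pr2 call was lost when WT replicate 1 of either temperature or WT replicate 2 of 30 °C was left out (adjusted p of 0.0575 to 0.0878) and in 4 of the 12 other settings (adjusted p of 0.0556 to 0.104). Between genotypes at 22 °C, 2 genes of this list rose in KO. S1pr3, a receptor that endothelial cells also express, had 14.3 ± 3.69 CPM in KO and 8.86 ± 2.18 CPM in WT (0.69, SE 0.186, adjusted p = 0.0198), a call lost without KO replicate 1 or WT replicate 1 or 2 (adjusted p of 0.0510 to 0.0543) and in 4 of the 12 other settings, with 0.03 (adjusted p = 0.990) beside the clock covariate. Sphk1, a sphingosine kinase, was called at 3.82 (SE 1.10, adjusted p = 0.0267) from 1 library, with 40.2 CPM in KO replicate 1, a muscle-bearing library, 0.772 to 1.00 CPM in the other KO libraries and 0.563 to 1.10 CPM in WT. Without that library it was 0.22 (adjusted p = 0.751), and the call was also lost without WT replicate 1, 2 or 3, with adjusted p of 0.0588 or more, and in 5 of the 11 other settings that gave an adjusted p (DESeq2 gave none), with -0.85 beside the clock covariate. The Sphk1 call at 22 °C against 30 °C in KO (2.96, adjusted p = 0.0453) rested on the same library, was -0.64 without it, and was lost without any KO replicate at 30 °C, with adjusted p of 0.0640 or more, and in 7 of the same 11 settings.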

How the data were processed

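The authors deposited raw read counts per Ensembl gene for 16 libraries, in 1 table of whole numbers. The tools were edgeR 3.14.0, STAR 2.4.2a and FastQC 0.10.1 and the builds GRCm38 and mm10, per the submitters' processing notes, which assign them no role. How reads were assigned to genes, with which annotation and whether by strand, is not given in the sources used here. A table of gene names gave symbols for 37607 of 38924 identifiers, and coordinates and exon lengths from GENCODE M21 on GRCm38.

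In edgeR 4.0.16 (R 4.3.3), 14103 of 24818 counted genes passed filterByExpr (minimum count 10). With TMM factors, a single quasi-likelihood fit of the 4 group means (12 residual degrees of freedom) gave 5 comparisons, adjusted over all genes tested by the Benjamini-Hochberg method. Standard errors were derived from each log2 fold change and its F statistic. The tested genes held at least 99.9% of each library's counts, the common biological coefficient of variation was 22.5%, and the script was tested on simulated data. No row named anything but a gene, no 2 libraries held identical values, and no column was left unused.

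The members and lists were chosen with earlier results of these data known. All members were named. From the wider lists every gene called in a genotype comparison or the interaction was named, and up to 3 called genes with the smallest p per list in each temperature comparison, except 1 gene that is not reported here. Alternatives were other scaling factors, an unfiltered table and a stricter filter (both 1 CPM in at least 4 libraries and 20 reads on average). Further ones were limma-voom (limma 3.58.1), DESeq2 1.42.0, fits of 2 groups, a replicate block and leaving out single libraries. The rest were no muscle-bearing libraries (over 0.1% of counts on muscle markers), a clock covariate and, chosen after seeing the data, library totals alone. Promoters are RefSeq windows on GRCm38.p6.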

Additional observations from a re-analysis of the deposited data

Results flagged for a closer look

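In groups of 4, a library was singled out where its gap to the nearest of the others exceeded Dixon's 95% critical share of the range of the group, which chance does in about 1 group in 20. Of 40 groups of the 10 ceramide genes 4 held such a library. Kdsr had 30.1 CPM in KO replicate 4 at 22 °C, against 37.6 to 38.6 CPM in the other 3. Cers2 had 257 CPM in WT replicate 4 at 22 °C, against 199.6 to 209 CPM in the others. Cers6 had 3.51 CPM in WT replicate 1 at 30 °C, against 1.87 to 2.02 CPM in the others, and Asah2 had 16.2 CPM in KO replicate 1 at 22 °C, against 22.5 to 23.6 CPM. With the named genes of the wider lists, 9 of 96 groups held one. KO replicate 1 at 22 °C, a muscle-bearing library, was apart for Sphk1 (40.2 CPM, others 0.772 to 1.00 CPM) and Gba2 (12.9 CPM, others 20.2 to 20.7 CPM). KO replicate 2 at 30 °C, also muscle-bearing, was apart for Ormdl3 (436 CPM, others 485 to 495 CPM) and St3gal5 (12.4 CPM, others 8.97 to 9.36 CPM). Sgpl1 had 287 CPM in WT replicate 1 at 22 °C, against 146 to 168 CPM in the others. The part of muscle tissue in these values was not tested.

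The effect of the knockout on Tlcd3b differed between temperatures, by -1.93 on the log2 scale (adjusted p = 0.000276 for the interaction in edgeR's quasi-likelihood test). Its 4 KO libraries at 22 °C lay below all 4 WT libraries, while the genotypes overlapped at 30 °C. Tlcd3b shares exon bases with the far more abundant Aldoa, and how many of its counts came from Aldoa reads was not tested.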

How the results depend on the processing

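Of 589 values of the 10 ceramide genes under settings other than leaving out a library, 526 kept their direction and their side of the threshold, 28 lost a call, 10 gained one and 25 changed sign; of 480 values with 1 library left out the numbers were 427, 26, 1 and 26. Values to which DESeq2 gave no adjusted p are not counted. The causes of the changes were not tested. Kdsr in both temperature comparisons and Tlcd3b held under all.

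Genes called in the interaction, 443 as reported, were 893 with library totals alone, 236 with no filter, 1076 with DESeq2, 1050 with limma-voom, 96 without the muscle-bearing libraries, 29 with the clock covariate and 147 to 1085 with 1 library left out. KO against WT at 30 °C gave 22 genes with DESeq2, 44 with limma-voom, 1 without the muscle-bearing libraries and 2 to 7 with 1 library left out, against 6 as reported. KO against WT at 22 °C, with 2482, gave 634 in the fit of only the groups compared, 1432 when the muscle-bearing libraries were dropped and 109 beside the clock term. In KO, 22 °C against 30 °C, with 3772, gave 6067 with limma-voom, 2115 when the muscle-bearing libraries were dropped and 2214 beside the clock term.

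Of the 10 ceramide genes, KO against WT at 22 °C called 2 with library totals alone (Degs1 and Asah1) and 0 in the fit of only the groups compared or with the clock covariate. In WT, 22 °C against 30 °C called 3 with no filter, 2 without the muscle-bearing libraries and 2 to 6 with 1 library left out, and in KO 1 without the muscle-bearing libraries.

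Values that changed sign were these, on the log2 scale. For KO against WT at 22 °C library totals alone gave Kdsr 0.086 and Cers4 0.12, the stricter filter Cers4 0.0015, limma-voom Cers6 -0.29, no muscle-bearing libraries Cers6 -0.26, and the clock covariate Cers6 -0.60, Asah2 -0.12, Ormdl3 0.039 and Sphk1 -0.85. For 22 °C against 30 °C in KO limma-voom gave Asah2 0.033 and Sphk1 -0.15, Sphk1 being -0.46 when the muscle-bearing libraries were dropped and -0.28 beside the clock term. In WT the clock covariate gave Cers2 8.884e-05. With 1 library left out KO against WT at 22 °C ranged from -0.11 to 0.0024 for Kdsr, from -0.088 to 0.050 for Cers4, from -0.26 to 0.66 for Cers6 and from -0.065 to 0.16 for Asah2, and 22 °C against 30 °C in KO from -0.098 to 0.062 for Asah2 and from -0.64 to 3.34 for Sphk1. At 30 °C between genotypes and in the interaction, 33 of 422 values of the genes other than Cers2 changed sign and 0 gained a call.

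Upper-quartile factors moved the median of all genes at 22 °C against 30 °C in WT to -0.13, and library totals alone to -0.31, against -0.03 with TMM. The split of higher against lower calls there was 2897 to 2509 with TMM, 2196 to 3382 with upper-quartile factors and 1328 to 5723 with library totals. In KO it was 1943 to 1829 with TMM, 1179 to 2540 with upper-quartile factors and 1195 to 2467 with library totals. With library totals alone it was 2314 to 704 for KO against WT at 22 °C (1061 to 1421 with TMM) and 741 to 152 for the interaction (106 to 337 with TMM).

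The labels do not say whether replicate numbers pair the samples. Of 24 same-numbered pairs of groups 13 correlated above 0.1, with a median of 0.169 and a range of -0.503 to 0.519. Pairs with different numbers were not compared, so these values cannot decide whether the numbers pair the samples. With the replicate block the interaction gave 186 genes, the other comparisons kept within 1.5 times their count, and Cers2 in KO against WT at 22 °C was -0.35 (adjusted p = 0.0214). Counting error limits Cers6, with 12 to 59 reads per library.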
